A study of Mus musculus with 6 samples.

Results

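The genes described here are 7 kallikrein proteases of the epidermis, Klk5, Klk6, Klk7, Klk8, Klk10, Klk13 and Klk14, in thymic medullary epithelial cells with and without Aire. The list of skin kallikreins was chosen by the difference between the genotypes in these arrays, so those differences are a description and carry no test. Each of the 7 has 1 probe set that carries its symbol alone, out of 19938 genes with such a probe set on the array. Sorting took cells that lacked CD45, carried an intermediate level of Ly51 and were high for MHC class II. The mice were 4 to 6 weeks old and all were (B6xNOD)F1. The groups are 3 Aire KO mice (labelled Aire-/-) and 3 Aire WT mice, with 1 mouse per array, so the errors are spreads between mice. The RNA was amplified in 2 rounds before labelling.

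Aire itself gave log2 intensities of 12.38, 12.41 and 12.42 in Aire KO mice, against 12.00, 11.92 and 11.99 in Aire WT mice. The signal was higher in Aire KO by 0.44 (SE 0.08, limma adjusted p = 0.0017). The deleted stretch of Aire is not stated in the labels, so this probe set does not check the genotypes.

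Tissue kallikreins are secreted serine proteases whose genes lie side by side in a single cluster. In the epidermis they are released as inactive precursors into the outermost layers, activate one another in a cascade and cut the junction proteins that hold dead corneocytes together, which lets the surface cells shed. The Kazal-type inhibitor encoded by Spink5 restrains them. In the medulla of the thymus, epithelial cells express genes of many peripheral tissues, skin included, and Aire is a regulator of much of that expression.

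Values are log2 intensities after the authors' RMA normalization, and a difference is the Aire KO mean minus the Aire WT mean. All 7 kallikreins were lower in the Aire KO mice, by 1.33-fold for Klk8 to 2.90-fold for Klk7 and by at least 3.21-fold for Klk5, with a median difference of -0.91 on the log2 scale, against a median of 0.02 over all 13925 genes tested. For none of the 7 did the groups overlap, all 7 passed limma's adjusted threshold of 0.05 in the fit over all genes, and 3 were at least 2-fold lower. Of all tested genes, 14.1% passed that threshold as lower in Aire KO (26.1% in either direction), 2.11% did so with a difference of 2-fold or more, and 20.5% had every Aire KO mouse under every Aire WT mouse (42.4% had groups that did not overlap in either direction). Because the genotype difference was used to choose the genes, nothing is read from the count. A gene was tested if its log2 intensity exceeded 5.97, the 40th percentile of all values, on at least 3 of the 6 arrays. All 7 passed that filter, 6 of them in both groups and Klk5 on Aire WT arrays alone, so Klk5 had to differ and its fold is a bound, with the Aire KO side set at the filter. The cells were measured in bulk, so fewer cells expressing a kallikrein and less of its RNA per cell cannot be told apart.

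Among the members, Klk5, Klk7 and Klk14 had the largest differences and Klk8 the smallest. The upstream sequences of these 4 are shown for that reason. Each is the 250 bases before the annotated start in RefSeq (GRCm38.p6), all on the plus strand of chromosome 7. All 7 members matched that table, with 8 windows, Klk6 having a pair of starts. Capitals mark CACCC on either strand, the core of the element bound by Klf factors.
Klk5, chr7:43842019-43842268: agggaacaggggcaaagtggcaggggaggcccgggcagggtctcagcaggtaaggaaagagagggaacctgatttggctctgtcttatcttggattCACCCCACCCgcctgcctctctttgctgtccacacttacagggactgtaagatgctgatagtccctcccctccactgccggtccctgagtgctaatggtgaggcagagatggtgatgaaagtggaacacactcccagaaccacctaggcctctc
Klk7, chr7:43811044-43811293: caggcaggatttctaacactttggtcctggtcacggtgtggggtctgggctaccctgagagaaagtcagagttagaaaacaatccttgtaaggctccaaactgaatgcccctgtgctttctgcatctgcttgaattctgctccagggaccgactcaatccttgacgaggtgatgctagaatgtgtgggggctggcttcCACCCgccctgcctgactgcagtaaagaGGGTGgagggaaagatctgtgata
Klk14, chr7:43690168-43690417: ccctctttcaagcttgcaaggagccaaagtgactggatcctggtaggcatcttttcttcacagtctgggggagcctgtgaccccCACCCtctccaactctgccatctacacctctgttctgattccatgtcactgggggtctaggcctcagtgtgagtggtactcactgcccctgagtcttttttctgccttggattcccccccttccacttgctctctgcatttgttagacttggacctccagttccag
Klk8, chr7:43797327-43797576: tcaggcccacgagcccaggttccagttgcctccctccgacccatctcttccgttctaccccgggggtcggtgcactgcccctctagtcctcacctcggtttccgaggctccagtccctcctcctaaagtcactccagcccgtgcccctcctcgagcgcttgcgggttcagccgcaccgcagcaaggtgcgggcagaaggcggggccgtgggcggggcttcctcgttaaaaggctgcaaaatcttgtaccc
CACCC occurred in 6 of the 8 windows, and 52.0% of 32851 mouse promoter windows of this length hold it. None of the 8 held TATAAA (12.4% of all windows do), the AP-1 motif TGANTCA (6.75%) or the grainyhead motif AACNGGTT (1.79%), counting both strands. The Klk8 window has more CpG and more G and C than the other 3 shown. It has 18 CpG dinucleotides and 65.2% G and C, against 3 CpG and 56.8% for Klk5, 4 and 52.4% for Klk7, and 0 and 53.6% for Klk14. The median window has 6 CpG, 18 or more are found in 21.7% of windows, and none in 7.87%. The Klk8 window was singled out after its values had been seen. Among the windows not shown, Klk10, whose difference was nearly as small as that of Klk8, has 2 CpG and 56% G and C. Klk13 has 2 CpG and 57.6%, and the Klk6 windows have 7 and 3 CpG. No relation between CpG and the size of a difference was tested.

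Klk5 encodes a trypsin-like protease that can activate itself and, in human skin, its relatives KLK7 and KLK14, and so stands at the head of the cascade. Its log2 intensity was 5.51, 5.46 and 5.25 in the 3 Aire KO mice, against 7.41, 7.66 and 7.89 in the 3 Aire WT mice. Every Aire KO value lay under the intensity filter and every Aire WT value well over it. The measured difference was -2.25 (SE 0.12, n = 3 per group). With the Aire KO side set at the filter the difference was -1.68, or at least 3.21-fold lower.

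Klk7, the chymotrypsin-like enzyme that cuts corneodesmosin and desmocollin, had the second largest difference. Its log2 intensity was 8.30, 8.14 and 8.36 in Aire KO mice, against 9.87, 9.78 and 9.76 in Aire WT mice. These values lie far above the intensity filter in both groups, and the mice within each group were close together. The difference was -1.54 (SE 0.09, n = 3 per group), or 2.90-fold lower.

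Klk14, a trypsin-like protease that degrades desmoglein in human skin, was at 6.03, 6.25 and 6.23 in Aire KO mice, against 7.32, 7.21 and 7.85 in Aire WT mice. The Aire KO values sat just over the filter, and Aire WT replicate 3 stood above the others. The difference was -1.29 (SE 0.15, n = 3 per group), 2.45-fold lower. It was -1.10 without Aire WT replicate 3.

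Klk6, also expressed by oligodendrocytes, had log2 intensities of 6.92, 7.09 and 6.81 in Aire KO mice, against 8.00, 7.74 and 7.82 in Aire WT mice. The difference was -0.91 (SE 0.10, n = 3 per group), 1.88-fold lower, with a clear gap between the groups. Klk13, a trypsin-like protease found in oral and oesophageal epithelium in humans, was at 6.81, 6.92 and 7.00 in Aire KO mice, against 7.72, 7.52 and 7.93 in Aire WT mice. Its difference was -0.82 (SE 0.11, n = 3 per group), or 1.76-fold lower.

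Klk10 and Klk8 had the smallest differences. Klk10 was at 6.12, 6.39 and 6.30 in Aire KO mice, against 6.80, 6.84 and 6.57 in Aire WT mice, which leaves the narrowest gap of any member, 0.19 between the highest Aire KO and the lowest Aire WT mouse. The difference was -0.47 (SE 0.10, n = 3 per group), 1.38-fold lower. Klk8, known as neuropsin from mouse hippocampus, was at 6.59, 6.48 and 6.66 in Aire KO mice, against 6.97, 6.99 and 6.99 in Aire WT mice. The Aire WT mice were almost identical, and the difference was -0.41 (SE 0.08, n = 3 per group), 1.33-fold lower.

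**Figure D1:**
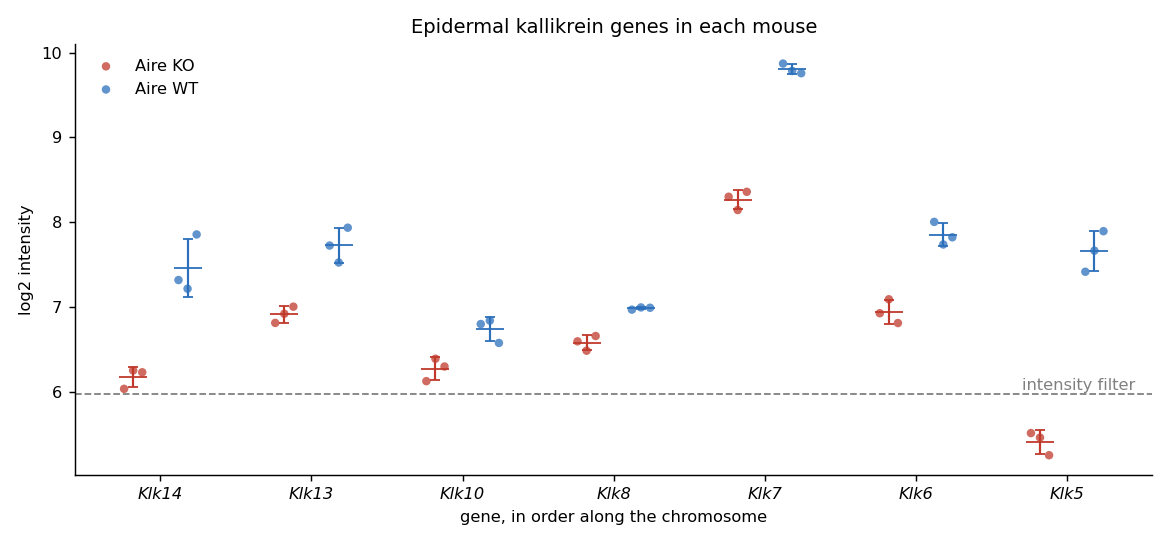
Log2 intensity (vertical axis) of the 7 epidermal kallikrein genes in gene order along chromosome 7, with 1 point per mouse, 3 Aire KO (left, red) and 3 Aire WT (right, blue) per gene, a bar at the mean and whiskers of 1 SD. For no gene do the groups overlap, and Klk5 in Aire KO mice lies under the intensity filter at 5.97 (dashed line).

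**Figure D2:**
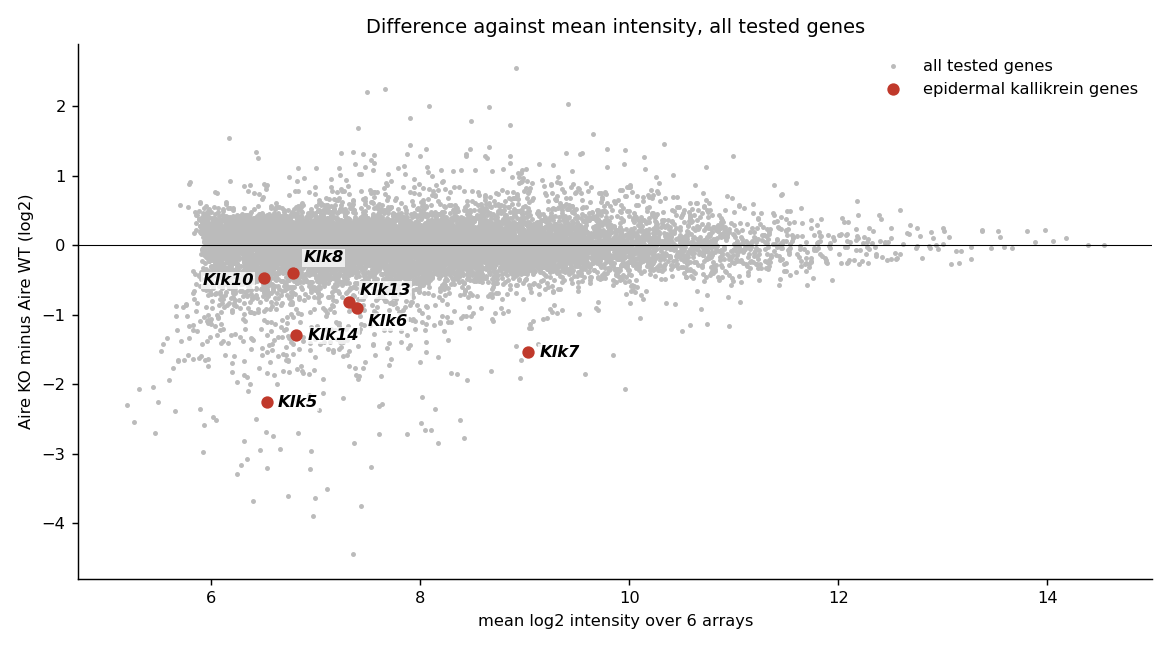
Difference between Aire KO and Aire WT (vertical axis, log2) against mean log2 intensity over 6 arrays (horizontal axis) for 13925 tested genes in grey and the 7 epidermal kallikreins in red. Klk5 lies at -2.25 and Klk7 at -1.54, while Klk8 and Klk10 lie at -0.41 and -0.47, at the lower edge of the dense grey band.

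The spread between mice of a genotype, which the choice of genes did not use, differed from member to member. Within Aire KO the SD of the log2 intensity ran from 0.09 for Klk8 to 0.14 for Klk6, and within Aire WT from 0.01 for Klk8 to 0.34 for Klk14. The median SD over all tested genes was 0.09 within Aire KO and 0.11 within Aire WT. The residual SD of Klk14 lay at percentile 97.8 of all tested genes and that of Klk5 at percentile 90.5, while Klk7 lay at percentile 32 and Klk8 at percentile 13.3. The most extreme mouse varied from member to member. Among the Aire KO mice, replicate 1 was lowest for 3 of the 7 members, replicate 2 for 2 and replicate 3 for 2. Among the Aire WT mice, replicate 3 was highest for Klk5, Klk13 and Klk14, replicate 1 for Klk6 and Klk7, and replicate 2 for Klk8 and Klk10.

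The kallikrein cluster gives the members a shared position. In the RefSeq gene order the 7 members run from Klk14, next to Ctu1 at one end of the cluster, to Klk5, and 3 other kallikreins, Klk12, Klk11 and Klk9, lie among them. Of the 5 kallikreins outside the list and outside the glandular group, 4 were bright enough to test. In that set 2 fell, against 14.1% of all tested genes. Klk4, a protease of enamel maturation that follows Klk5 in the row, was at 7.42, 7.19 and 7.32 in Aire KO mice, against 8.07, 7.80 and 7.95 in Aire WT mice. It fell by 0.64 on the log2 scale (SE 0.10, n = 3 per group), with a limma adjusted p of 0.00065. Klk15, which follows Klk4, fell by 0.29 (limma adjusted p = 0.032), a call that was lost when any single array but Aire KO replicate 2 was left out (-0.31 to -0.22, adjusted p 0.051 to 0.13). Klk12, at -0.20, and Klk9, at -0.22, did not pass (adjusted p = 0.15 and 0.18), and their groups overlapped. Klk11 was too dim to test, with means of 4.96 in Aire KO and 5.04 in Aire WT mice. The median over the 4 tested was -0.25.

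The glandular kallikreins, salivary gland and kidney proteases of the Klk1 type, take up the other end of the cluster. All 6 that could be tested fell, against 14.1% of all tested genes. However, 3 of them, Klk1b8, Klk1b9 and Klk1b22, were tested through the Aire WT arrays alone and had to differ. With the Aire KO side set at the filter, Klk1b8 was at least 3.91-fold, Klk1b9 at least 1.30-fold and Klk1b22 at least 4.62-fold lower. The other 3 were Klk1b5 (-1.43), Klk1b11 (-1.39) and Klk1b27 (-0.38). Klk1b5 and Klk1b27 had only 1 Aire KO array above the filter, against 3 Aire WT arrays. Both had an Aire KO mean of 5.84, under the filter, so the size of their falls is uncertain. Klk1b11 was above the filter on all arrays of both groups. These genes are near-identical copies of each other and may share probes, so their separate values are uncertain. Klk1b27 lost its call without Aire KO replicate 2 or 3 or Aire WT replicate 1 or 3 (-0.36 to -0.32, adjusted p 0.057 to 0.072).

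Of the 10 genes with a probe set on each side of the cluster, 16 were tested, of which 1 fell and 3 rose. That share is close to the 26.1% called over all tested genes, so nothing is read from it. Ceacam18, on the Klk14 side, rose by 0.38 on the log2 scale, averaging 8.59 ± 0.13 in Aire KO mice and 8.21 ± 0.06 in Aire WT mice (SD, n = 3 each, limma adjusted p = 0.0098). The other 3 calls were marginal. The zinc finger gene Zfp819 (0.27, adjusted p = 0.040) lost its call without Aire KO replicate 1 or 3 or Aire WT replicate 1 or 3 (0.22 to 0.26, adjusted p 0.064 to 0.13) and in 4 other alternatives (0.20 to 0.27, adjusted p 0.0502 to 0.079). The call of 1700008O03Rik (0.32, adjusted p = 0.032) was lost without any array but Aire WT replicate 2 (0.26 to 0.35, adjusted p 0.065 to 0.11). The fall of 2410002F23Rik (-0.36, adjusted p = 0.027) was lost without Aire KO replicate 1 or 2 or Aire WT replicate 2 or 3 (-0.37 to -0.28, adjusted p 0.057 to 0.11). Ctu1, the gene next to Klk14, stood at 0.18 and did not pass (adjusted p = 0.12). Whether the kallikreins and their neighbours differ was not tested.

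**Figure D3:**
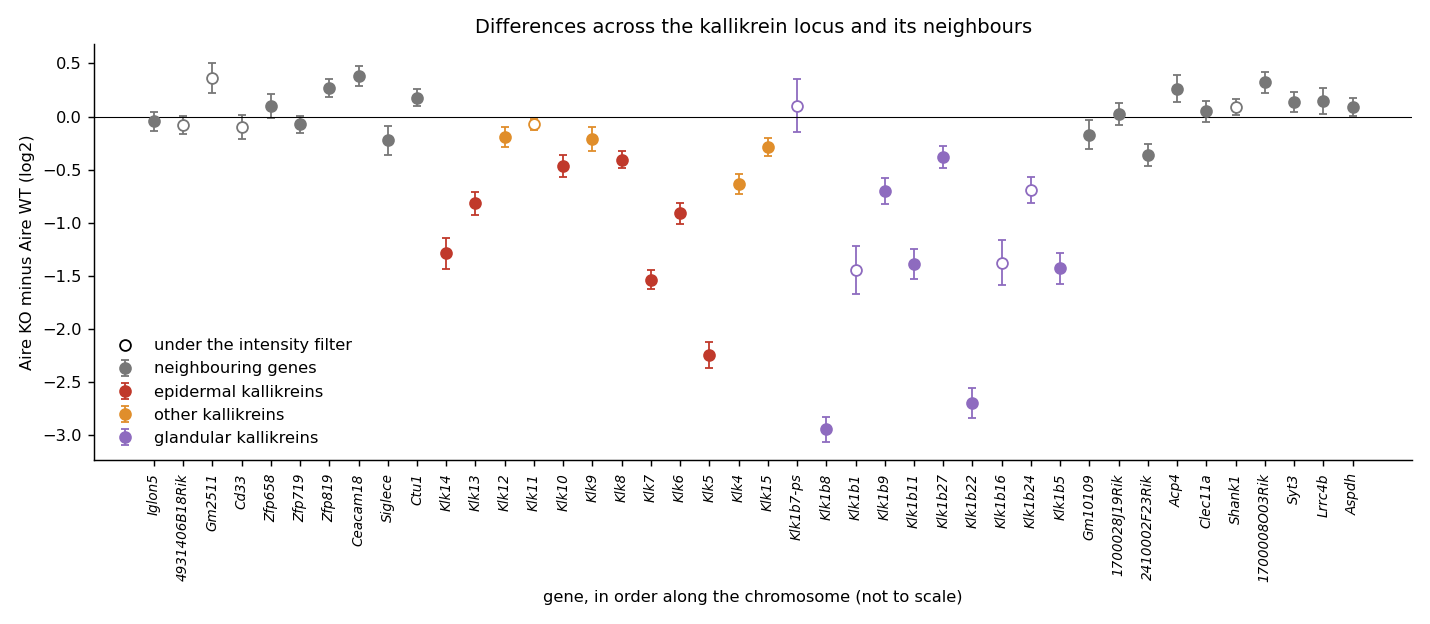
Difference between Aire KO and Aire WT (vertical axis, log2, with SE) for the kallikrein genes and the 10 genes with a probe set on each side, in order along chromosome 7. Filled points passed the intensity filter, open points did not (their whiskers are the unmoderated SE). The kallikreins lie between -2.95 and 0 apart from the pseudogene Klk1b7-ps at 0.10, with Klk12, Klk11 and Klk9 nearest to 0, and the neighbouring genes lie between -0.36 and 0.38.

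Markers of keratinocytes were lower in the same mice. Of 15 listed, 13 had a probe set of their own, 11 could be tested and 10 of those fell, against 14.1% of all tested genes. The list was chosen with earlier results of these data known, so the count is a description. Among the 10 were Krt1 (-2.67), Krt77 (-1.92) and Krt10 (-1.86), keratins of the suprabasal epidermis. Filaggrin (Flg) and Dsg1a were not analysed here, and Krt2 and Lce3a were too dim to test. The summed intensity of the 13 was 3747 to 4315 in Aire KO mice, against 7795 to 8398 in Aire WT mice. Summed over the 7 kallikreins the intensity was 826 to 861 in Aire KO mice, against 1871 to 2027 in Aire WT mice. Sbsn lost its call without Aire KO replicate 1 (-0.34, adjusted p = 0.0501), and Calml3, at -0.03, did not pass. The part of the cells that express these markers in the kallikrein differences was not tested.

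**Figure D4:**
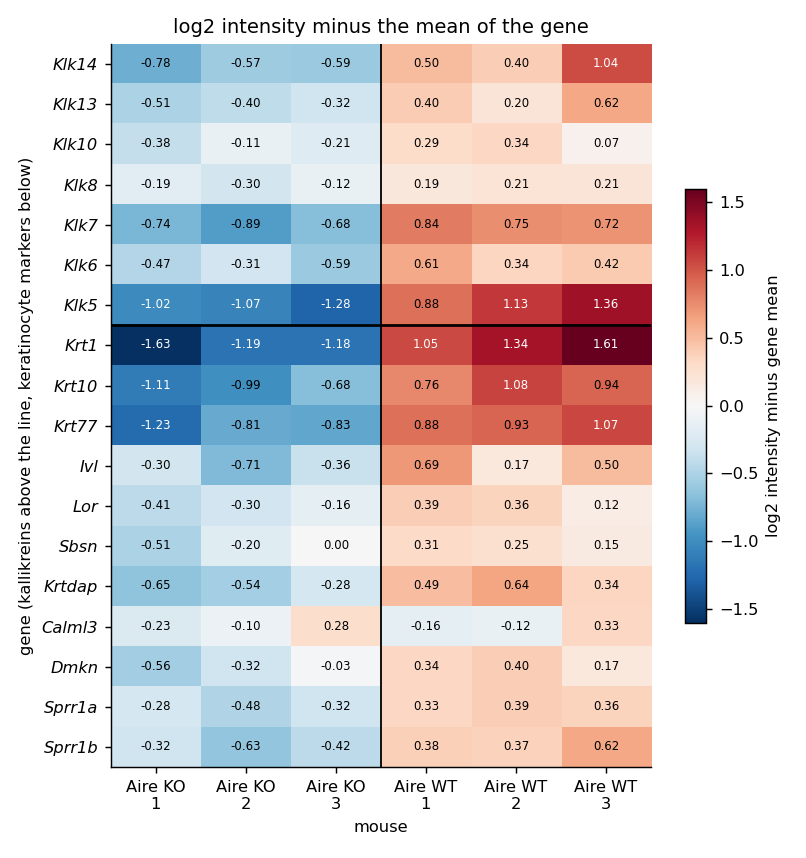
Log2 intensity minus the mean of the gene over the 6 arrays, in colour and digits, for the 7 kallikreins (above the line) and the 11 tested keratinocyte markers (below), with 3 Aire KO mice on the left and 3 Aire WT mice on the right. Every kallikrein is below its mean in each Aire KO mouse and above it in each Aire WT mouse, and Calml3 is the marker whose groups overlap.

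The other markers moved less evenly. For the counts below, 14.1% of all tested genes fell and 12.0% rose. Medullary epithelial markers such as Krt8 (12.95 in Aire KO and 12.85 in Aire WT mice) and Cd74 (13.61 in Aire KO and 13.49 in Aire WT mice) were bright in both groups. The summed intensity of the 14 with a probe set was 61916 to 65301 in Aire KO mice, against 60476 to 61704 in Aire WT mice. Most of that sum came from Cd74 and the MHC class II genes H2-Aa (13.63 in Aire KO mice) and H2-Ab1 (13.48). The cells were sorted as high for MHC class II, so the sum says little about the dimmer markers. In that list 3 fell, Krt5 (-0.84), Krt14 (-0.44) and Epcam (-0.37), and Relb rose by 0.35. Krt14 lost its call without Aire KO replicate 1 (-0.38, adjusted p = 0.057) or 2 (-0.37, 0.052), and Epcam without Aire KO replicate 1 or 3 or Aire WT replicate 3 (-0.38 to -0.29, adjusted p 0.057 to 0.092). Of 6 tested myeloid markers, Adgre1, Itgam and Csf1r (-0.54) fell, but Adgre1 (at least 1.93-fold lower) and Itgam (at least 1.82-fold) were above the filter on Aire WT arrays alone and had to differ. In the same list Cd68 (0.32, adjusted p = 0.0497) rose with overlapping groups, a call lost without any array but Aire WT replicate 3 (0.25 to 0.37, adjusted p 0.053 to 0.15). The summed intensity of the 8 myeloid markers was 3222 to 3327 in Aire KO mice, against 3361 to 3693 in Aire WT mice. Most of it came from Lyz2, which did not pass (2422 to 2488 in Aire KO and 2502 to 2674 in Aire WT mice). Of 6 tested lymphocyte markers Ptprc fell (-0.62), which was lost without Aire KO replicate 3 (-0.47, adjusted p = 0.092) or Aire WT replicate 3 (-0.42, 0.064). The sum over 8 was 625 to 774 in Aire KO mice, against 755 to 1075 in Aire WT mice. Aire WT replicate 3 gave the 1075, with Cd8a at 260 and Rag1 at 195. In Aire WT replicates 1 and 2, Cd8a was at 128 and 138 and Rag1 at 115 and 91. Among 8 tested stromal markers Col1a1 and Acta2 fell, Dcn rose, and the sum over 9 was 2324 to 2900 in Aire KO mice, against 2360 to 2771 in Aire WT mice. Of 7 tested cortical markers Enpep and Ctsl fell while Ccl25 and Prss16 rose (Ccl25 not with the lowest-mean probe set, 0.11, adjusted p = 0.32), Prss16 not without Aire KO replicate 2 (0.28, adjusted p = 0.063), and the sum over 9 was 6460 to 6787 in Aire KO mice, against 5947 to 6723 in Aire WT mice. Enpep encodes Ly51, a marker used in the sorting. It averaged 6.27 in Aire KO mice, against 7.26 in Aire WT mice (limma adjusted p = 6.4e-06). Ptprc, which also fell, encodes CD45, another marker used in the sorting. Whether the sorted cells were alike in the genotypes was not tested. The proteasome subunit gene Psmb11, which defines cortical epithelium, was under the filter in both groups. The part of these cells in the kallikrein differences was not tested.

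Inhibitors of the kallikreins changed unevenly: of 9 tested, 3 fell and 1 rose, and the list median was -0.05. Over all tested genes, 14.1% fell and 12.0% rose. Spink5, which encodes LEKTI, the inhibitor of KLK5, KLK7 and KLK14 in human skin, was at 8.03, 8.58 and 8.50 in Aire KO mice, against 9.51, 9.17 and 9.25 in Aire WT mice. The groups did not overlap, and Spink5 fell by 0.94 on the log2 scale (SE 0.14, n = 3 per group), with a limma adjusted p of 0.00056. The broad protease trap alpha-2-macroglobulin (A2m) fell by 1.41 and Slpi, a secreted inhibitor of leukocyte proteases that also acts on KLK7 in human skin, by 0.67. Serpina12 (vaspin), a serpin that inhibits KLK7 in humans, rose by 0.44 (limma adjusted p = 0.014), and the call was lost without Aire KO replicate 1 (0.35, adjusted p = 0.065). The membrane-bound Kunitz inhibitor genes Spint1, at -0.14, and Spint2, at 0.11, did not pass.

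Of the proteases that can activate kallikrein precursors, 2 of 7 tested fell and 0 rose, with a list median of -0.01. The shares over all tested genes were 14.1% lower and 12.0% higher. At an unadjusted limma p under 0.05, 2 would have risen and 2 fallen. The share of all tested genes at that unadjusted cut was not counted, so nothing is read from this. Matriptase (St14), a membrane protease that can activate KLK5 precursor in skin, averaged 10.35 ± 0.13 in Aire KO mice and 10.17 ± 0.11 in Aire WT mice (SD, n = 3 each), and prostasin (Prss8) stood at -0.01. Neither passed the test (limma adjusted p = 0.18 and 0.95). Urokinase (Plau) fell by 1.02 on the log2 scale (adjusted p = 0.00017), and the meprin subunit gene Mep1a by 0.41 (adjusted p = 0.0079).

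Among the junction genes and other proteins cut during shedding, 3 of 10 tested fell and 1 rose, with a list median of -0.11. Of all tested genes, 14.1% fell and 12.0% rose. Corneodesmosin (Cdsn), the main substrate of shedding, was at 7.73, 7.76 and 7.80 in Aire KO mice, against 8.05, 7.82 and 7.53 in Aire WT mice. The Aire KO mice lay inside the range of the Aire WT mice, and the difference of -0.03 did not pass. The desmosomal cadherin gene Dsc2 fell by 0.63. Dsg3, another, is counted among the 3 but was above the filter on Aire WT arrays alone and had to differ (at least 1.51-fold lower). Dsg1b, the testable member of the desmoglein-1 genes, rose by 0.34 (limma adjusted p = 0.045), a call lost without any array but Aire KO replicate 1 (0.21 to 0.40, adjusted p 0.055 to 0.14). Acid sphingomyelinase (Smpd1), a lipid enzyme of the skin barrier, fell by 0.30 (adjusted p = 0.046) and lost its call without any array but Aire WT replicate 2 (-0.34 to -0.19, adjusted p 0.056 to 0.12). Dsg1c was too dim to test, and Dsc1 and Dsg1a were not analysed here.

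Of the receptors and peptides that kallikreins act on, 4 could be tested. Il1b, whose precursor KLK7 can cut in human skin, fell by 0.59 on the log2 scale (limma adjusted p = 0.0060). Its Aire KO mean of 5.89 lay under the filter, with 1 Aire KO array above it, so the size of the fall is uncertain. The protease-activated receptor gene F2rl3 rose by 0.46 (adjusted p = 0.032), a call lost without any array but Aire WT replicate 2 (0.30 to 0.50, adjusted p 0.054 to 0.11). For F2rl3 the Aire WT mean of 5.74 lay under the filter, with 1 Aire WT array above it. The thrombin receptor F2r, at -0.14, and cathelicidin (Camp), an antimicrobial peptide precursor processed by KLK5 and KLK7 in human skin, at -0.22, did not pass. F2rl1, the receptor activated by KLK5 and KLK14 in human keratinocytes, was not analysed here.

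Substrates studied in the nervous system went both ways, with 2 of 5 tested lower and 2 higher, against 14.1% and 12.0% of all tested genes. Nrg1, a growth factor cut by neuropsin in mouse brain, rose by 1.15 and averaged 9.84 ± 0.08 in Aire KO mice and 8.69 ± 0.05 in Aire WT mice (SD, n = 3 each, limma adjusted p = 1.9e-06). Fibronectin (Fn1) fell by 0.86. Myelin basic protein (Mbp), a substrate of KLK6, rose by 0.28 and L1cam, a substrate of neuropsin, fell by 0.35. Both of these calls were lost in 4 of the 6 fits that left out an array, Mbp without any Aire KO replicate or Aire WT replicate 1 (0.26 to 0.29, adjusted p 0.052 to 0.063) and L1cam without Aire KO replicate 1 or 3 or Aire WT replicate 2 or 3 (-0.36 to -0.26, adjusted p 0.051 to 0.093).

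Other proteases and cross-linking enzymes of the cornified layer fell in 4 of 12 tested and rose in 0, with a list median of -0.09. Among all tested genes 14.1% fell and 12.0% rose. At an unadjusted p under 0.05 in limma, 4 would have fallen and 1 risen. Nothing is read from that either, since the unadjusted share of all tested genes was not counted. Cathepsin L (Ctsl) fell by 0.72 and bleomycin hydrolase (Blmh), which degrades filaggrin peptides, by 0.39. Cathepsin D (Ctsd) fell by 0.53, and not without Aire KO replicate 1 (-0.51, limma adjusted p = 0.0501), and Htra1 by 0.46, and not without Aire KO replicate 1 (-0.35, 0.080) or Aire WT replicate 3 (-0.34, 0.054). The transglutaminase genes Tgm1 (-0.16), Tgm3 (-0.07) and Tgm5 (0.05) did not pass.

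Of 16 tested regulators of keratinocyte differentiation, 2 fell and 1 rose, against 14.1% and 12.0% of all tested genes, and the list median was -0.05. At an unadjusted limma p under 0.05, 4 would have fallen and 2 risen. These unadjusted counts cannot be set against the shares above, which are for the adjusted threshold. The homeodomain gene Hopx fell by 0.50 (limma adjusted p = 0.0039). Grhl2 fell by 0.35 and Grhl3 rose by 0.32, calls lost for Grhl2 without Aire KO replicate 1 or 3 or Aire WT replicate 1 or 3 (-0.36 to -0.25, adjusted p 0.055 to 0.12) and for Grhl3 without Aire KO replicate 1 (0.28, 0.075) or Aire WT replicate 1 (0.29, 0.056). Trp63, the master regulator of stratified epithelium, at 0.14, Klf4 at -0.15 and Zfp750 at 0.08 did not pass.

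**Figure D5:**
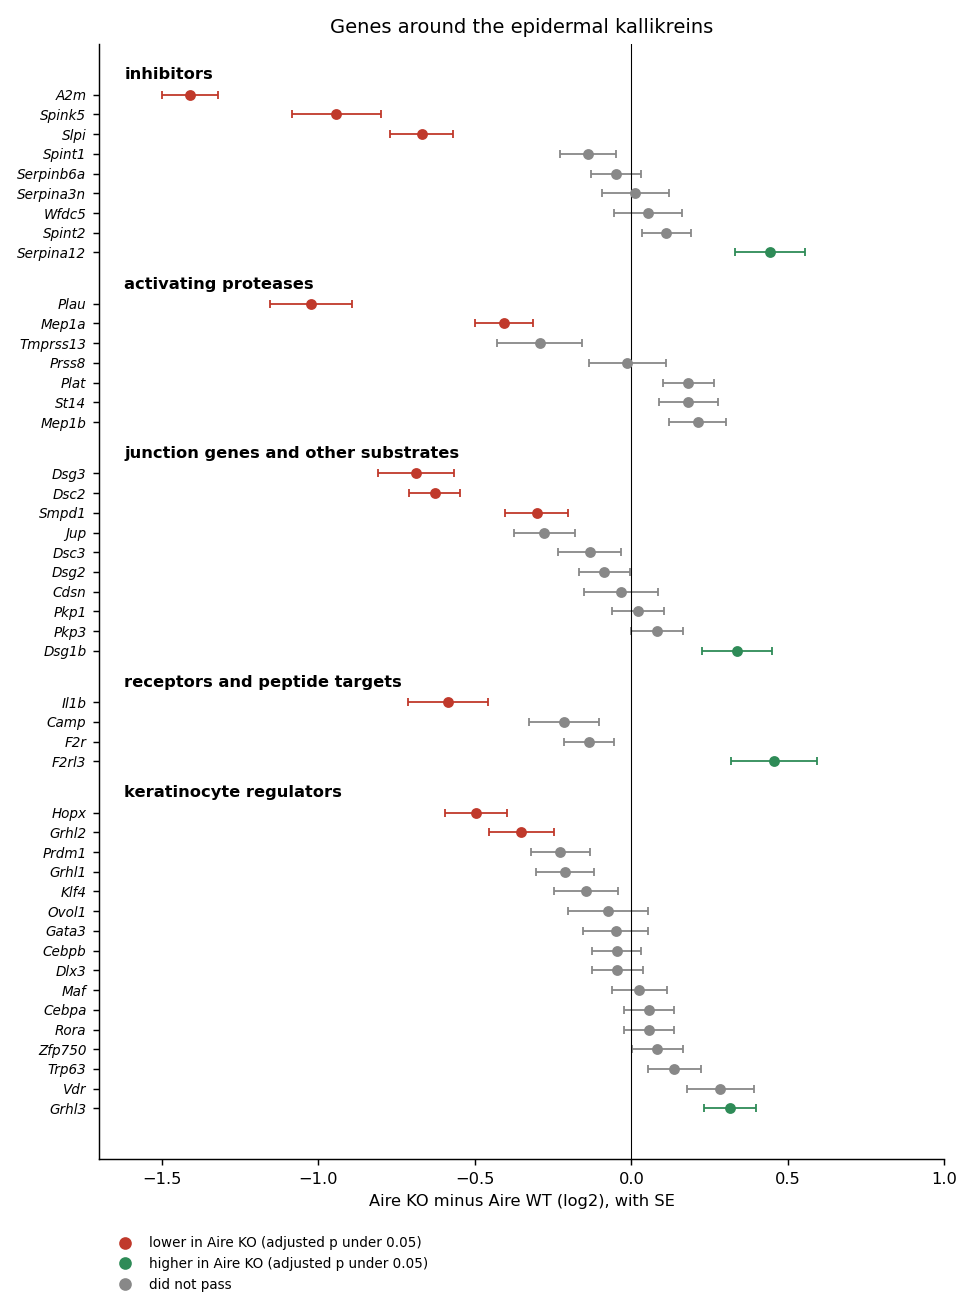
Difference between Aire KO and Aire WT (horizontal axis, log2, with SE) for the tested inhibitors, activating proteases, substrates, receptors and peptide targets, and keratinocyte regulators, each gene on its own line. A2m, Plau and Spink5 lie farthest to the left at -1.41, -1.02 and -0.94, and St14, Prss8, Cdsn and Trp63 lie near 0.

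The genes whose profile lay closest to each member were found by the root mean square difference over the 6 arrays, after each gene's own mean was subtracted. The measure includes the genotype difference, so it is a description over 6 arrays in 2 groups. For Klk5 they were Gp2, a bacterial uptake receptor of microfold cells, at 0.14 on the log2 scale, Idi2 and Rhox12 (0.15 each). Closest to Klk7 were Krt71, a keratin of the inner root sheath of hair, at 0.03, Cyp2f2 and Adamdec1 (0.08 each). Klk14 lay nearest to Oas1f (0.06), Lyg2 (0.07) and the basement membrane gene Nid1 (0.10). Klk6 had the neurofilament gene Nefm at 0.02, Tgfbi at 0.04 and the thyrotropin-releasing hormone gene Trh at 0.07, and Klk13 had Malt1, Tlcd4 and Asah2 at 0.05 to 0.06. Klk10 lay nearest to Tiam2, Slc39a10 and alpha-fetoprotein (Afp) at 0.03 to 0.05, and Klk8 to Gsap, Gla and Dtl at 0.03 to 0.04. Of these nearest genes, Idi2, Rhox12, Adamdec1, Lyg2 and Tlcd4 were above the filter on Aire WT arrays alone and had to differ. Their distances rest in part on Aire KO values under the filter. Between members the smallest distance was 0.14, for Klk8 and Klk10, and the largest 0.94, for Klk5 and Klk8.

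Median intensities were 92.9 to 98.2 after RMA. RMA makes arrays alike in distribution, so these medians do not show how the signal varied between arrays. Precision is limited by there being 6 arrays. Pearson correlations of log2 intensity across probe sets, which are not replicates, were 0.991 to 0.993 within Aire KO, 0.990 to 0.993 within Aire WT and 0.976 to 0.985 between them.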

How the data were processed

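Sorted thymic medullary epithelial cells of 6 mice were measured on 6 Affymetrix arrays. The deposited table holds linear intensities per probe set, summarised by the authors with RMA per the submitters' processing notes; no further upstream setting is given. RMA makes arrays alike in distribution, so a difference is relative to the array as a whole.

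The intensities were taken as log2 with no pseudocount. Of 35512 probe sets, 21789 carry 1 gene symbol in GEO's platform annotation, 1621 several and 12102 none, and the probe set of highest mean was kept for each of 19938 genes. The 13925 genes above a log2 intensity of 5.97 on at least 3 arrays were fitted with limma 3.58.1 (R 4.3.3, lmFit and eBayes, two-sided), adjusted by Benjamini-Hochberg over all of them at 0.05. The fit was tested on simulated data. Figures were drawn with matplotlib 3.10.9.

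Members and lists were chosen with earlier results of these data known. Named genes are every member, its 3 nearest profiles, up to 4 called genes per list by adjusted p, called neighbours (at most 6), direct partners of the kallikreins, and Aire; any other named gene was picked with its values known. Alternatives were another filter, probe set, normalization step or offset, a replicate block and leaving out each array. A planned comparison of protein sequences is not analysed here.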

Additional observations from a re-analysis of the deposited data

How the results depend on the processing

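Among the members and the 61 called genes that were followed, no difference changed sign in the alternatives that gave a value. Of the 61, 39 kept their call, 29 in all 16 alternatives and 10 in 15, since they were not tested with the 60th percentile filter, and 22 lost it in some. Beside single arrays and the block, Zfp819 lost its call with no filter (adjusted p = 0.0502), the offset (0.060) and trended robust variances (0.059), and Cd68, Smpd1, Dsg1b, Ccl25 and 2410002F23Rik lost theirs in 1 to 3 others. The members' median difference of -0.91 was -1.29 with the filter at the 60th percentile, which left Klk8 and Klk10 untested, and -0.76 with an offset of 32 added before the log; it ran from -0.99 to -0.84 when 1 array was left out. Klk5 was -1.65 with that offset. Leaving out 1 array gave 1364 to 1877 genes lower and 1052 to 1547 higher, the lowest count of higher genes coming without Aire KO replicate 1 (1052, against 1676). Among related genes, 6 rose, and 2 to 5 did when 1 array was left out (2 without Aire KO replicate 1 or Aire WT replicate 1, 3 without Aire KO replicate 2). Beside the cluster, the 1 lower gene became 0 with the lowest-mean probe set and 0 to 1 without an array, and the 3 higher became 1 with the 60th percentile filter and 1 to 4 without an array. Mice of the same replicate number did not deviate alike. Their deviations correlated at -0.02, -0.21 and -0.06, and 0 of the 6 arrays correlated best with its own number. With 3 mice per group this cannot exclude a pairing. With the replicate number as a block, 1742 genes were lower and 1368 higher, and Klk15, Smpd1, Zfp819 and Mbp lost their calls (adjusted p = 0.061, 0.060, 0.079 and 0.053). With 3 mice per group, the number of arrays limits the precision. The intensity filter is a percentile of all values and not a measured background. Values under it, such as Klk5 in Aire KO mice, may be background, and their size is uncertain.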
